A study of Mus musculus with 10 samples.

Results

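The genes described here are interferon-stimulated genes, together with the receptors and transcription factors that switch them on, in whole kidneys of old mice. They were chosen by symbol from a fixed list of 53 genes, of which 50 were among the 13299 genes of the table and 3 (Dhx58, Oas1a and Trim21) were not analysed here. The comparison was of 5 kidney samples from Rragc S74N/+ mice with 5 from Rragc +/+ mice, all C57BL/6 and aged 1.5 years, by 3′ mRNA sequencing. Rragc S74N/+ mice carry a knock-in in which 1 allele of Rragc encodes RagC with asparagine in place of serine at position 74. RagC is a small GTPase that reports nutrient sufficiency to the growth-promoting kinase complex mTORC1, and the changed form is an active one. The allele is present in every cell of the body, leukocytes in the kidney included, and the labels give no other allele or treatment that separates the groups. The question was how the interferon response of the aged kidney differs when this signal is mildly raised.

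Interferons are secreted proteins that warn cells of infection or of misplaced nucleic acid. Type I interferons bind the receptor made of IFNAR1 and IFNAR2, and interferon gamma binds the receptor made of IFNGR1 and IFNGR2. Both activate Janus kinases, which phosphorylate STAT proteins. A complex that contains STAT2 and IRF9 binds the interferon-stimulated response element (ISRE), and pairs of STAT proteins bind the gamma-activated site (GAS). The genes so induced encode sensors of foreign RNA and DNA, proteins that block viral replication, GTPases that attack the vacuoles of intracellular parasites, and enzymes of ubiquitin, ISG15 and ADP-ribose transfer. In the kidney, tubular, endothelial and immune cells can all mount this response.

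All values below are normalized counts, that is, read counts per gene divided by a size factor for each library. Differences are given as log2 fold change of Rragc S74N/+ against Rragc +/+ on the log2(normalized count + 1) scale. For genes with few counts this scale can shrink a change or depart from the ratio of means, even in sign, as in Zbp1 below. The libraries held 4488493 to 5797251 reads in these genes. The sequenced 3′ ends lie away from the changed codon, so Rragc itself, with a log2 fold change of -0.22 (SE 0.20, adjusted p = 0.508 in limma), does not check the genotype labels. Markers of the labelled tissue were present, with a summed 22989 to 30658 normalized counts of 5 proximal tubule markers in every library. The labels do not state that each sample is a separate animal, so p-values measure the spread between these 10 samples.

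Of the 50 members, 10 were higher in Rragc S74N/+ kidneys (limma, adjusted p under 0.05) and 0 were lower. Below, a gene passed, rose or fell only by this test unless another tool is named. They were the RNA-activated kinase gene Eif2ak2, the neighbouring genes Parp9, Parp14 and Dtx3l, the GTPase genes Gbp7 and Iigp1, the effectors Oasl2, Ifi44 and Xaf1, and the interferon gamma receptor gene Ifngr1. Their log2 fold changes lay between 0.51 and 1.08. The share of members that passed as higher was 20%, beside 3.45% of all genes tested, and the share that passed as lower was 0, beside 2.58% of all genes. None of the members was lower at an unadjusted p under 0.05 (0 of 50), and edgeR and DESeq2 on the read counts each called 0 lower. The count of members that rose was 5 without the variance trend in the test and 4 to 11 when 1 library was left out, with 4 without Rragc +/+ replicate 2, 5 without Rragc +/+ replicate 5, Rragc S74N/+ replicate 2 or Rragc S74N/+ replicate 5, and 6 without Rragc S74N/+ replicate 3. In whole tissue, a change in the number of cells of a type and a change in RNA per cell cannot be told apart.

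The rest moved less or varied more, and most had positive values. Among the 40 members that did not pass, 32 had a log2 fold change above 0 and 8 below 0. Over all 50 members the median log2 fold change was 0.43, against -0.01 over all genes tested, and 84% had values above 0, against 48.7% of all genes. In 8 members every Rragc S74N/+ kidney lay above every Rragc +/+ kidney, which is 16% of members beside 4.15% of all genes. These were Eif2ak2, Parp9, Parp14, Dtx3l, Gbp7 and Ifngr1, which passed in limma, and Gbp2 and Sp100, which did not, although DESeq2 called Gbp2 (adjusted p = 0.0374). Without Rragc +/+ replicate 1, or with libraries scaled to equal totals, the count was 13. The share of all genes at those settings is not given here, so 13 cannot be set beside the 4.15%. With edgeR 11 members passed as higher, beside 3.80% of all genes, and with DESeq2 16 passed, beside 6.03% of all genes. The 10 members called by limma were among those called by each of these tools. The others called by DESeq2 were Irf7, Ifit3, Ifitm3, Samd9l, Gbp2 and Gbp3.

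**Figure D1:**
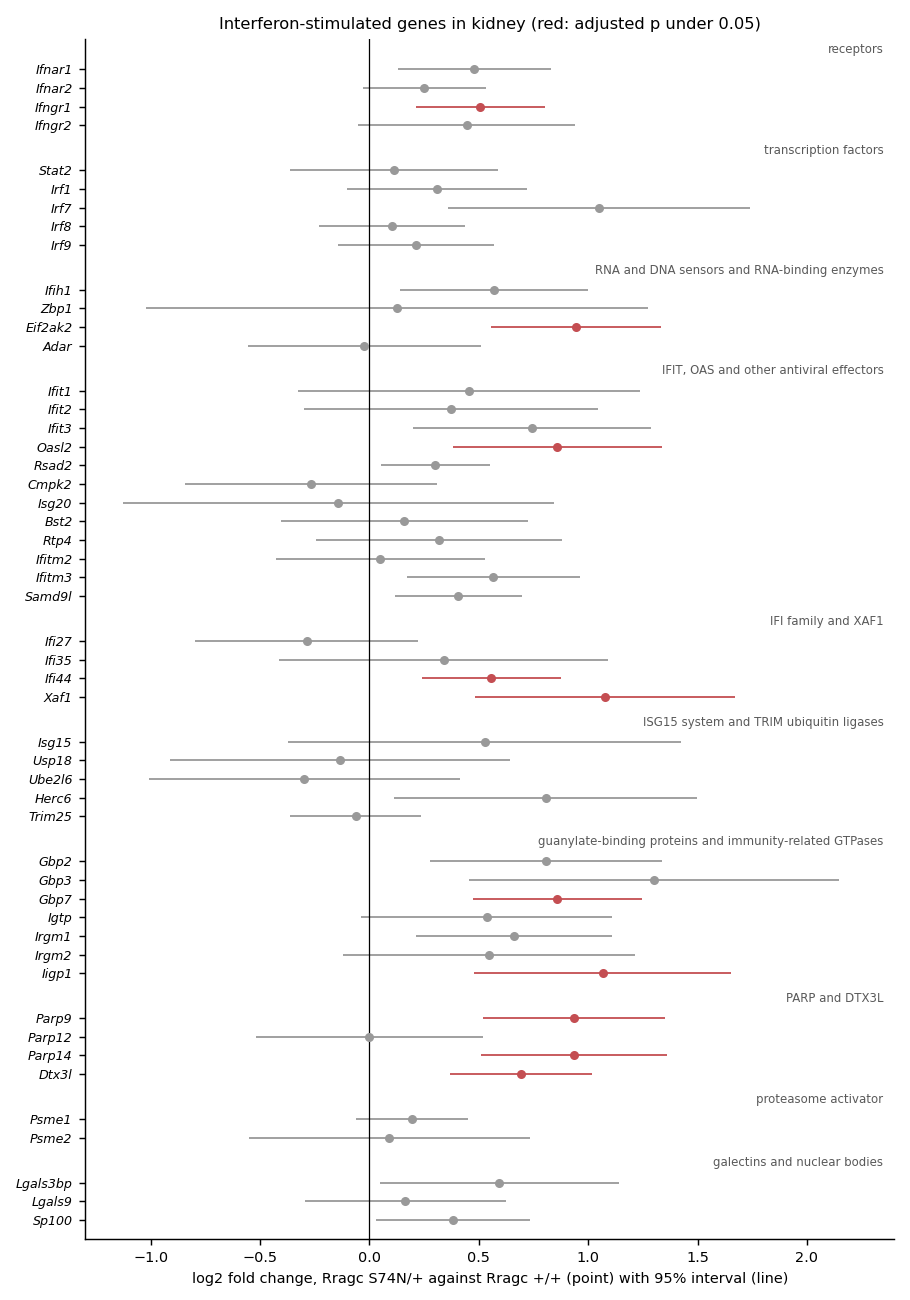
Log2 fold change of each of the 50 members (point) with its 95% interval (line), grouped by role; the horizontal axis is Rragc S74N/+ against Rragc +/+ and the vertical line marks no difference. The 10 members with an adjusted p under 0.05 are red and all lie right of the line, as do 32 of the 40 grey ones.

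A null result for a member with few reads said little. None of the 10 members with a mean under 25 normalized counts passed in limma (adjusted p under 0.05), 2 were under 0.05 unadjusted, edgeR called 0 and DESeq2 called 1. Their median standard error was 0.37 on the log2 scale. By contrast 6 of 25 members with a mean of 25 to 100 passed, with a median standard error of 0.25, and 4 of 15 with a mean over 100, with 0.16. In 14 of the 40 members not called the 95% interval reached above 1, so a log2 fold change of 1 was within reach of these data. In 24 of the 40 the whole interval lay within 1 of 0, and in 13 it excluded 0, although none of the 13 passed the correction over all genes.

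The average level of the members did not overlap between genotypes. The mean of the members' log2 differences from the Rragc +/+ mean ran from -0.17 to 0.12 over the Rragc +/+ kidneys and from 0.16 to 0.66 over the Rragc S74N/+ kidneys. Rragc S74N/+ replicate 1 stood highest, with the highest value of all 10 libraries for 20 members. That library also stood apart from all others over the whole set of genes, so its distance is not particular to the members. Rragc S74N/+ replicate 4 stood lowest of its genotype and held the lowest Rragc S74N/+ value for 29 members. Without replicate 1 the median log2 fold change of the members was 0.34, and without replicate 4 it was 0.47.

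**Figure D2:**
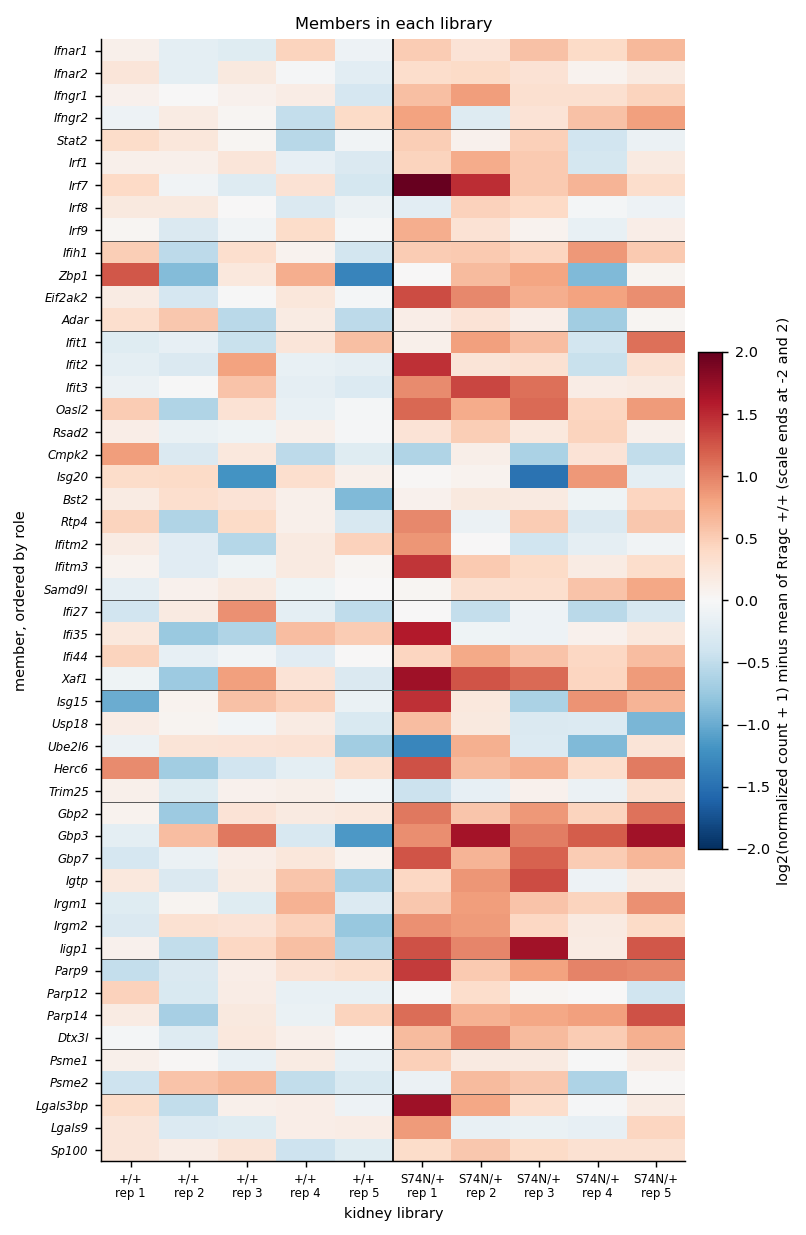
Each row is a member, ordered by role, and each column a kidney; the colour is the log2 difference from the mean of the Rragc +/+ kidneys, red for higher and blue for lower, and the scale ends at -2 and 2. Red covers most rows in Rragc S74N/+ replicate 1 and fewest in replicate 4, which held the lowest Rragc S74N/+ value for 29 members.

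Markers of leukocytes moved with the same groups. Of the 6 pan-leukocyte markers 3 rose, and their summed level was 228.8 to 290 normalized counts in Rragc +/+ and 396 to 631 in Rragc S74N/+ kidneys. Ptprc, which encodes the leukocyte surface protein CD45, rose from 76.6 ± 10.6 in Rragc +/+ to 181 ± 48.9 in Rragc S74N/+ kidneys (mean ± SD of normalized counts, n = 5 each), a log2 fold change of 1.20 (SE 0.18, adjusted p = 0.00148 in limma). Rac2, a GTPase of blood cells, rose by 1.44 and Cd52, a lymphocyte surface antigen, by 0.87 on the log2 scale (limma adjusted p = 0.00623 and 0.0315). Laptm5, Coro1a and Cd53 did not pass in limma, with log2 fold changes of 0.75, 0.59 and -0.01. Of the 8 macrophage markers in the table Lyz2 and C1qb rose, by 0.93 and 0.73 (limma adjusted p = 0.00769 and 0.0134), with summed levels of 589 to 766 and 894 to 1212. Of the other macrophage markers, Mrc1, C1qa, Csf1r and Adgre1 had log2 fold changes of 1.05, 0.51, 0.44 and 0.18, and Cd68 and C1qc had -0.34 and -0.48. Of 4 T cell markers 1 rose, Trac, by 1.08 (limma adjusted p = 0.0295), and the sums were 18.9 to 53.3 and 71.3 to 99.98. Of 2 neutrophil markers 1 rose, S100a9, by 1.46 (limma adjusted p = 0.0399), with sums of 11.4 to 26.8 and 32.0 to 71.3. Ptprc, Rac2, Lyz2 and C1qb passed in all 10 fits that left out 1 library, Cd52 and Trac in 5 and S100a9 in 3. The sums of these 4 lists did not overlap between genotypes, whereas those of 5 B and plasma cell markers did, at 859 to 3070 and 1602 to 6873. All 5 of these B and plasma cell markers had log2 fold changes above 0, with a median of 0.86. Of them 3 were under 0.05 unadjusted in limma, none passed in limma or edgeR, and DESeq2 called 1.

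The marker lists were incomplete in the table. Defining markers not analysed here were Cd4, Cd8a, Cd3g and Cd2 of T cells, Ly6g, Csf3r, Retnlg, Mpo and Elane of neutrophils, Ncr1, Klrb1c, Gzma and Prf1 of NK cells, and Siglech, Ccr9 and Spib of plasmacytoid dendritic cells, known as a strong source of type I interferon. The single NK cell marker left, Nkg7, summed to 4.16 to 11.2 in Rragc +/+ and 8.15 to 24.0 in Rragc S74N/+ kidneys, and it did not pass the test. Among markers of kidney cells 3 fell and none rose in limma. Slc12a3 of the distal convoluted tubule fell by 1.94, Umod of the thick ascending limb by 1.55 and Slc5a2 of the proximal tubule by 1.05 on the log2 scale (limma adjusted p = 1.61e-06, 0.00130 and 0.000476). The other markers of these segments did not pass, with a log2 fold change of 0.04 for Slc12a1 of the thick ascending limb and of -0.22 to 0.19 for the other 4 of the proximal tubule. The collecting duct marker Atp6v1g3 and the podocyte marker Nphs1 had 0.42 and 0.53 (unadjusted p = 0.0072 and 0.044, limma adjusted p = 0.0764 and 0.184). DESeq2 called 1 of 3 collecting duct markers and 0 of 3 podocyte markers. Of 5 endothelial markers none passed in limma and DESeq2 called 1. Kdr had -0.49 (limma adjusted p = 0.0506), and every Rragc S74N/+ kidney lay below every Rragc +/+ kidney. Pecam1, Emcn and Cdh5 had 0.31, 0.30 and 0.26, and Eng had -0.29. The part of leukocyte number in the members' rise was not tested.

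**Figure D3:**
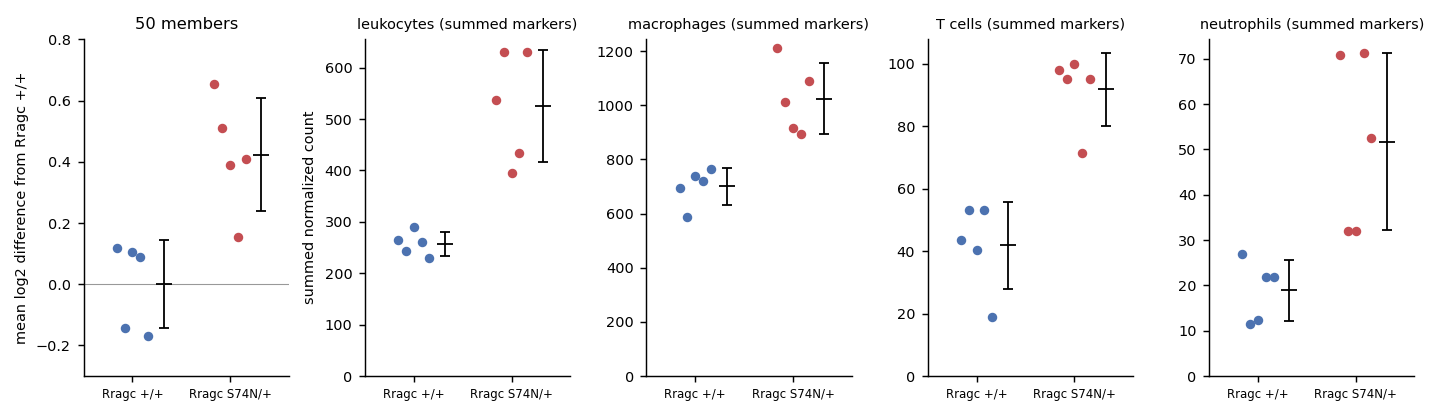
The first panel gives, per kidney, the mean log2 difference of the 50 members from the Rragc +/+ mean; the other panels give the summed normalized counts of leukocyte, macrophage, T cell and neutrophil markers. Points are kidneys, bars are mean ± SD (n = 5), and the genotypes do not overlap in any of the 5 panels.

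Interferon-stimulated genes are known for ISRE and GAS motifs near their start. The sequences below show the 2 members that rose and hold ISRE letters (Gbp7 and Eif2ak2), 2 with ISRE letters that did not pass (Isg15 and Ifit1), and 2 members that rose without those exact letters (Dtx3l and Ifi44). RefSeq windows from 250 bases before to 50 after the transcription start (GRCm38.p6) existed for 43 of the 50 members. The ISRE core GAAANNGAAA, read on both strands, lay in 18 of the 43 windows (41.9%), beside 3.73% of the 9866 tested genes with a window. The GAS letters TTCNNNGAA, which read the same on both strands, lay in 14 (32.6%), beside 8.01%. The 2 motifs can overlap, as they do in Bst2. Capitals mark ISRE letters on either strand, and each line reads 5′ to 3′ in the direction of the gene.
Gbp7, chr3:142530258-142530317, plus strand: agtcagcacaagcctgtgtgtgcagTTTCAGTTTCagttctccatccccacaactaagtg
Eif2ak2, chr17:78882535-78882564, minus strand: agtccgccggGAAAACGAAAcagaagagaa
Isg15, chr4:156200856-156200915, minus strand: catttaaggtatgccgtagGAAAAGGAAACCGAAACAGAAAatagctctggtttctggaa
Ifit1, chr19:34640769-34640828, plus strand: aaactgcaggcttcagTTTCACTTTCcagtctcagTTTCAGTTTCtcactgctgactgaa
Dtx3l, chr16:35939028-35939087, minus strand: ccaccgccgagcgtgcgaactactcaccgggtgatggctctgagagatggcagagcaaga
Ifi44, chr3:151749911-151749970, minus strand: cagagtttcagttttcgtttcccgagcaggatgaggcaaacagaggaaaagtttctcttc

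Gbp7, which rose, holds its ISRE letters at 53 to 44 bases before the start, and Eif2ak2, which had the lowest adjusted p of the members, at 19 to 28 bases after it. Isg15 holds 3 overlapping matches and Ifit1 holds 2, and neither gene passed the test. Dtx3l and Ifi44 rose and hold no exact match in the window, which says only that those letters are not there. Over the members with a window the ISRE letters lay in 2 of 7 that rose and in 16 of 36 that did not pass. The median log2 fold change was 0.54 with the letters and 0.37 without. The GAS letters lay in 2 of 7 and in 12 of 36, and the medians were 0.36 with and 0.45 without. The shown windows other than those of Gbp7 and Eif2ak2 were chosen after their values were seen.

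The receptors are where the signal enters, and 1 of 4 rose. Ifngr1, which encodes the ligand-binding chain of the interferon gamma receptor, was at 192, 182, 191, 200.0 and 143 normalized counts in Rragc +/+ and 275, 325, 225, 226 and 246 in Rragc S74N/+ kidneys. Every Rragc S74N/+ kidney was above every Rragc +/+ kidney, and the log2 fold change was 0.51 (SE 0.14, adjusted p = 0.0419 in limma). The call held in 2 of the 10 fits that left out 1 library (adjusted p up to 0.0959) and was lost without the variance trend (adjusted p = 0.0876).

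Ifnar1, a chain of the type I interferon receptor, was at 76.1, 61.4, 59.5, 96.1 and 65.7 normalized counts in Rragc +/+ and 101, 85.3, 106, 92.7 and 112 in Rragc S74N/+ kidneys. The groups overlapped through Rragc +/+ replicate 4, and the log2 fold change was 0.48 (SE 0.16, adjusted p = 0.0898 in limma). Of the alternatives run, it passed only when libraries were scaled to equal totals (limma adjusted p = 0.0465). Ifnar2, the other chain, was at 198, 147, 192, 166 and 144 normalized counts in Rragc +/+ and 214, 218, 205, 176.19 and 189 in Rragc S74N/+ kidneys. Ifngr2, the signaling partner of Ifngr1, was at 39.2, 46.8, 43.2, 29.7 and 54.7 normalized counts in Rragc +/+ and 73.7, 34.9, 51.0, 63.1 and 74.8 in Rragc S74N/+ kidneys. Both overlapped between genotypes, with log2 fold changes of 0.25 (SE 0.13, adjusted p = 0.248 in limma) and 0.44 (SE 0.23, adjusted p = 0.245 in limma). Ifnar2, Ifnar1 and Ifngr2 lie in a row on chromosome 16 with Il10rb, and none of these 4 passed in limma, at an unadjusted p under 0.05 for Ifnar1 alone.

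Of the 5 transcription factors none passed in limma, 1 was under 0.05 without adjustment, and edgeR and DESeq2 each called 1, the same gene. That gene was Irf7, which drives transcription of the type I interferon genes. It was at 29.1, 20.8, 18.2, 27.1 and 16.9 normalized counts in Rragc +/+ and 106, 63.0, 32.0, 35.6 and 28.2 in Rragc S74N/+ kidneys. All but Rragc S74N/+ replicate 5 lay above the Rragc +/+ kidneys, and replicate 1 was the highest. The log2 fold change was 1.05 (SE 0.33, adjusted p = 0.0657 in limma), with an edgeR adjusted p of 0.0446 and a DESeq2 adjusted p of 0.0125.

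The other factors showed small differences within the spread of the kidneys. Irf1, induced by interferon gamma, was at 98.4, 97.8, 108, 81.2 and 74.6 normalized counts in Rragc +/+ and 124, 153, 132, 71.3 and 104 in Rragc S74N/+ kidneys. Irf9, the DNA-binding part of the complex that reads the ISRE, was at 166, 132, 154, 209.6 and 158 normalized counts in Rragc +/+ and 269.5, 199, 169.96, 146 and 176.82 in Rragc S74N/+ kidneys. Their log2 fold changes were 0.31 (SE 0.19, adjusted p = 0.336 in limma) and 0.21 (SE 0.17, adjusted p = 0.450 in limma), and in both replicate 4 had the lowest Rragc S74N/+ value. Stat2, the partner of IRF9, was at 63.8, 58.3, 50.9, 33.2 and 46.8 normalized counts in Rragc +/+ and 69.9, 52.3, 69.0, 37.7 and 45.7 in Rragc S74N/+ kidneys. Irf8, a factor of myeloid cells and B cells, was at 207, 207, 181, 148 and 167 normalized counts in Rragc +/+ and 156, 249.10, 239, 175 and 169 in Rragc S74N/+ kidneys. The groups overlapped throughout in both, with log2 fold changes of 0.11 (SE 0.22, adjusted p = 0.799 in limma) and 0.10 (SE 0.16, adjusted p = 0.727 in limma). The interval of Stat2 was -0.36 to 0.59 and its sign turned without Rragc +/+ replicate 4 (-0.03).

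Among the sensors and RNA-binding enzymes 1 of 4 rose. Eif2ak2 encodes PKR, a kinase that is activated by double-stranded RNA and shuts down translation. It was at 40.3, 28.1, 35.5, 41.9 and 34.8 normalized counts in Rragc +/+ and 89.5, 70.8, 59.99, 63.1 and 69.0 in Rragc S74N/+ kidneys. The lowest Rragc S74N/+ kidney exceeded the highest Rragc +/+ kidney, and the mean rose from 36.1 ± 5.42 in Rragc +/+ to 70.5 ± 11.5 in Rragc S74N/+ kidneys (mean ± SD of normalized counts, n = 5 each). The log2 fold change was 0.94 (SE 0.18, adjusted p = 0.00863 in limma), and it passed in all 10 fits that left out 1 library. Ifih1, the sensor of long double-stranded RNA known as MDA5, had a log2 fold change of 0.57 (SE 0.20, adjusted p = 0.1004 in limma). Zbp1, a sensor of Z-form nucleic acid, had at most 16.8 normalized counts in any kidney and an interval of -1.02 to 1.27. Its log2 fold change was 0.12 in limma, so it counts among the values above 0, but -0.05 in edgeR. Adar, which edits adenosine in double-stranded RNA, had a log2 fold change of -0.02 with an interval of -0.56 to 0.51.

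Of the 10 role groups the PARP group had the largest share of members that rose, 3 of 4, and these are direct neighbours on chromosome 16 in the order Parp14, Dtx3l and Parp9. Parp9 and Dtx3l encode partners of 1 complex, an ADP-ribosyltransferase and a ubiquitin ligase. Parp9 was at 50.3, 57.2, 76.8, 85.6 and 89.5 normalized counts in Rragc +/+ and 186, 102, 123, 141 and 137 in Rragc S74N/+ kidneys. Dtx3l was at 64.9, 55.1, 76.8, 71.6 and 65.7 normalized counts in Rragc +/+ and 104, 133, 103, 94.7 and 109.8 in Rragc S74N/+ kidneys. In neither gene did the genotypes overlap.

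Parp14, a mono-ADP-ribosyltransferase, was at 76.1, 42.7, 77.8, 62.0 and 93.5 normalized counts in Rragc +/+ and 149.21, 110.5, 117, 121 and 166 in Rragc S74N/+ kidneys, again without overlap. The log2 fold changes were 0.93 (SE 0.20, adjusted p = 0.0131 in limma) for Parp9, 0.69 (SE 0.15, adjusted p = 0.0163 in limma) for Dtx3l and 0.94 (SE 0.20, adjusted p = 0.0140 in limma) for Parp14. Parp9 and Parp14 passed in all 10 fits that left out 1 library and Dtx3l in 9, failing without Rragc +/+ replicate 2 (adjusted p = 0.0507). Parp12, which lies elsewhere, did not pass and had an interval of -0.52 to 0.52. The RefSeq windows used here did not include Parp9 or Parp14.

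The guanylate-binding proteins and immunity-related GTPases attack pathogen-containing vacuoles, and 2 of 7 rose while all 7 had values above 0. Their median log2 fold change was 0.81. Gbp7 was at 51.5, 60.3, 71.995, 76.8 and 68.6 normalized counts in Rragc +/+ and 158, 106, 148.97, 92.7 and 104 in Rragc S74N/+ kidneys. The genotypes did not overlap, and the log2 fold change was 0.86 (SE 0.18, adjusted p = 0.0135 in limma), which passed in all 10 fits that left out 1 library. Iigp1 was at 62.6, 41.6, 78.7, 89.9 and 38.8 normalized counts in Rragc +/+ and 144, 117, 192, 66.2 and 141 in Rragc S74N/+ kidneys. Rragc S74N/+ replicate 4 lay among the Rragc +/+ kidneys while the other 4 lay above them, and the log2 fold change was 1.07 (SE 0.28, adjusted p = 0.0336 in limma). The call of Iigp1 held in 4 of the 10 fits that left out 1 library (adjusted p up to 0.101).

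The other 5 had log2 fold changes from 0.54 to 1.30. Gbp2 did not overlap between genotypes, at 22.4, 12.5, 25.9, 24.5 and 24.9 normalized counts in Rragc +/+ and 45.7, 32.0, 40.0, 29.5 and 46.6 in Rragc S74N/+ kidneys, with a log2 fold change of 0.81 (SE 0.25, adjusted p = 0.0652 in limma). DESeq2 called Gbp2 and Gbp3 (adjusted p = 0.0374 and 0.0409), 4 of the 7 in all, and edgeR called 2 of the 7. Gbp3 had the largest limma value of all members, 1.30 (SE 0.40, adjusted p = 0.0636 in limma), at few reads. It ran from 9.11 ± 5.71 in Rragc +/+ to 21.3 ± 5.50 in Rragc S74N/+ kidneys (mean ± SD of normalized counts, n = 5 each). In edgeR its log2 fold change of 1.22 was below the 1.26 of Irf7, and in DESeq2 1.225 was below 1.246. Irgm1, which governs the other immunity-related GTPases, had 0.66 (SE 0.21, adjusted p = 0.0721 in limma). These genes come in families of similar copies, so reads may have been shared between them, and the same holds for the IFIT, IFITM and OAS-like genes.

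**Figure D4:**
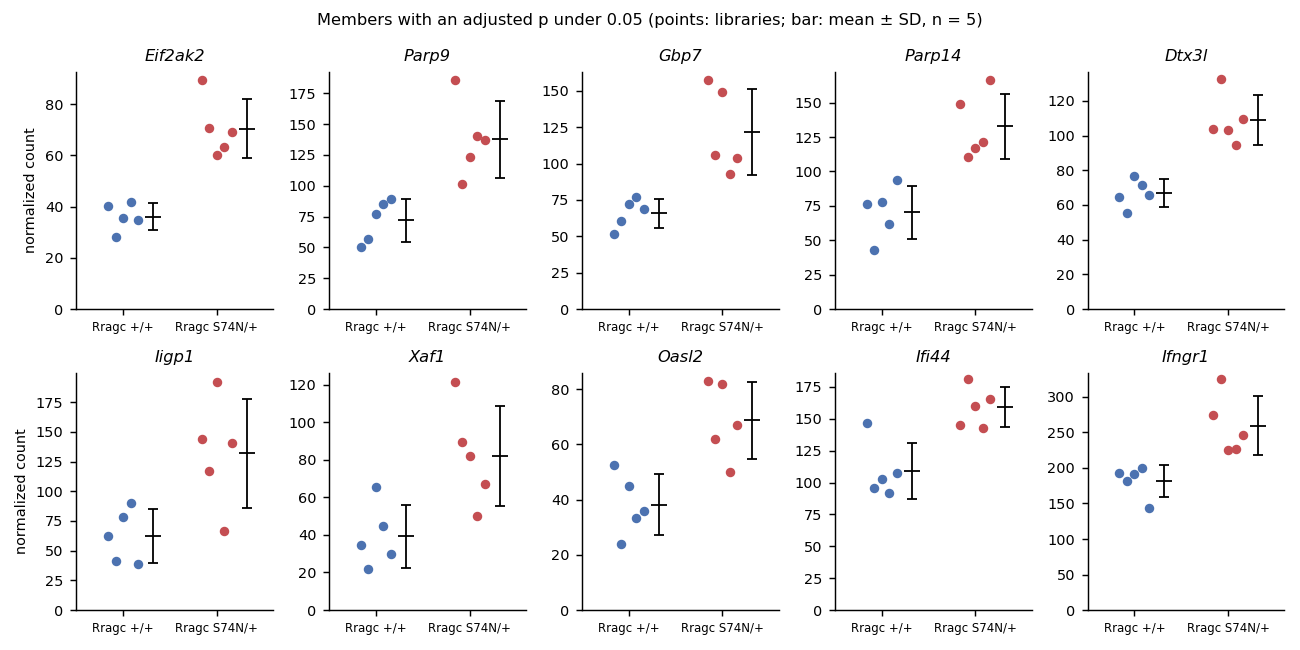
Normalized counts of the 10 members with an adjusted p under 0.05, in order of p; points are kidneys and bars mean ± SD (n = 5 per genotype), and each vertical axis starts at 0. In Eif2ak2, Parp9, Gbp7, Parp14, Dtx3l and Ifngr1 the genotypes do not overlap, and in Iigp1, Xaf1, Oasl2 and Ifi44 a kidney crosses into the range of the other genotype.

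Among the 12 IFIT, OAS and other antiviral effectors 1 rose and 10 had values above 0, with a median log2 fold change of 0.35. Oasl2, an OAS-like protein, was at 52.6, 23.9, 45.1, 33.2 and 35.8 normalized counts in Rragc +/+ and 83.0, 62.0, 82.0, 49.9 and 67.0 in Rragc S74N/+ kidneys. Only Rragc S74N/+ replicate 4 reached into the range of Rragc +/+, and the log2 fold change was 0.86 (SE 0.23, adjusted p = 0.0351 in limma). It passed in 4 of the 10 fits that left out 1 library (adjusted p up to 0.0981).

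The other 11 did not pass in limma, and DESeq2 called 3 of them, Ifit3, Ifitm3 and Samd9l (adjusted p = 0.043, 0.0292 and 0.048). Rsad2, the radical enzyme viperin, ran from 258 ± 20.5 in Rragc +/+ to 319 ± 36.3 in Rragc S74N/+ kidneys (mean ± SD of normalized counts, n = 5 each), a log2 fold change of 0.30 (SE 0.12, adjusted p = 0.125 in limma). Ifit3, which binds foreign RNA with its relatives, had 0.74 (SE 0.26, adjusted p = 0.0899 in limma), and Ifit1 and Ifit2 had 0.45 and 0.37 with intervals of -0.33 to 1.24 and -0.30 to 1.05. Ifitm3, which blocks fusion of viruses with endosomes, was at 894, 727, 799.6, 962 and 872 normalized counts in Rragc +/+ and 2275, 1214, 1102, 949 and 1077 in Rragc S74N/+ kidneys. Its log2 fold change was 0.57 (SE 0.19, adjusted p = 0.0781 in limma), and Rragc S74N/+ replicate 1 was far above the rest. Samd9l, an antiviral factor, had 0.41 (SE 0.14, adjusted p = 0.0847 in limma). Cmpk2, a nucleotide kinase next to Rsad2, and Isg20, an exonuclease, had -0.27 and -0.14, with intervals of -0.85 to 0.31 and -1.13 to 0.84. Bst2, Rtp4 and Ifitm2 had log2 fold changes of 0.16, 0.32 and 0.05.

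Of the 4 members grouped as the IFI family with Xaf1, 2 rose. Xaf1 encodes a protein that binds the apoptosis inhibitor XIAP, and it was at 34.7, 21.8, 65.3, 44.5 and 29.8 normalized counts in Rragc +/+ and 121, 89.2, 82.0, 49.9 and 67.0 in Rragc S74N/+ kidneys. Rragc S74N/+ replicate 4 lay within the Rragc +/+ range and the other 4 lay above it. The log2 fold change was 1.08 (SE 0.28, adjusted p = 0.0336 in limma). Ifi44 was at 147, 95.7, 103, 91.7 and 107 normalized counts in Rragc +/+ and 145, 181, 160.0, 143 and 165 in Rragc S74N/+ kidneys. The overlap came from Rragc +/+ replicate 1, and the log2 fold change was 0.56 (SE 0.15, adjusted p = 0.0386 in limma). Xaf1 passed in 3 and Ifi44 in 2 of the 10 fits that left out 1 library (adjusted p up to 0.0981 and 0.106). Ifi35 had a log2 fold change of 0.34 with an interval of -0.41 to 1.09, and Ifi27 had -0.29 with -0.80 to 0.22.

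The group of the ISG15 system and Trim25 was the only one of these role groups whose median log2 fold change lay below 0. ISG15 is a ubiquitin-like protein, UBE2L6 and HERC6 attach it and USP18 removes it. Of 5 members tested, TRIM25 ligase gene included, none passed in limma, edgeR or DESeq2, and 1 was under 0.05 unadjusted. The median log2 fold change of -0.06 was the value of Trim25 itself. Of the 5, 2 had values above 0 and 3 below. Herc6, the member with the largest value, was at 28.0, 8.32, 10.6, 12.2 and 17.9 normalized counts in Rragc +/+ and 35.4, 22.3, 24.0, 18.3 and 30.1 in Rragc S74N/+ kidneys. Rragc +/+ replicate 1 lay among the Rragc S74N/+ kidneys, and the log2 fold change was 0.81 (SE 0.33, adjusted p = 0.138 in limma). Isg15 itself was at 4.47, 10.4, 15.4, 14.0 and 8.95 normalized counts in Rragc +/+ and 28.9, 11.6, 5.999, 19.4 and 16.5 in Rragc S74N/+ kidneys. Its counts were few and overlapped, with a log2 fold change of 0.53 (SE 0.42, adjusted p = 0.462 in limma) and an interval of -0.37 to 1.43. Usp18, Ube2l6 and Trim25 had -0.13, -0.30 and -0.06, with intervals of -0.91 to 0.64, -1.01 to 0.41 and -0.36 to 0.24.

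The 2 subunits of the PA28 proteasome activator, which shapes peptides for antigen presentation, did not pass in limma, edgeR or DESeq2, and neither was under 0.05 unadjusted. Psme1 was at 314, 299, 266, 329 and 266 normalized counts in Rragc +/+ and 409, 332, 333, 291 and 325 in Rragc S74N/+ kidneys. The groups overlapped, with a log2 fold change of 0.19 (SE 0.12, adjusted p = 0.328 in limma) and an interval of -0.06 to 0.45. Psme2 had 0.09 with -0.55 to 0.73.

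Of the galectin-related genes and Sp100 none passed in limma, edgeR or DESeq2, while 2 of 3 were under 0.05 unadjusted. Lgals3bp, a secreted galectin-binding glycoprotein, was at 269.6, 148, 223, 227.06 and 193 normalized counts in Rragc +/+ and 674, 358, 266, 205 and 234 in Rragc S74N/+ kidneys. Rragc S74N/+ replicate 1 was the highest, and the log2 fold change was 0.59 (SE 0.26, adjusted p = 0.164 in limma). Sp100, a component of nuclear bodies, was at 87.3, 81.1, 88.3, 55.0 and 61.7 normalized counts in Rragc +/+ and 95.1, 108, 96.0, 90.6 and 91.3 in Rragc S74N/+ kidneys. The genotypes did not overlap, but the difference was small, 0.38 (SE 0.17, adjusted p = 0.162 in limma). Lgals9, a galectin, had 0.16 with -0.30 to 0.63.

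Further genes of the pathway were read from lists of 104 symbols, of which 75 were tested. Of the 75, 9 were higher (12%, beside 3.45% of all genes) and 0 were lower in limma, 2 were lower at an unadjusted p under 0.05, and edgeR and DESeq2 called 0 and 1 lower. The count of 9 was 5 without Rragc +/+ replicate 2 and 14 with libraries scaled to equal totals. The median log2 fold change was 0.49 and 60 had values above 0. No interferon gene was analysed here, as none of the 8 listed, Ifnb1 and Ifng among them, was in the table.

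In nucleic acid sensing 1 of 12 rose, Ddx58, which encodes the RNA sensor RIG-I, from 102 ± 21.3 in Rragc +/+ to 159.9 ± 28.6 in Rragc S74N/+ kidneys (mean ± SD of normalized counts, n = 5 each), a log2 fold change of 0.65 (SE 0.17, adjusted p = 0.0355 in limma). The call of Ddx58 held in 5 of the 10 fits that left out 1 library and was lost without the variance trend (adjusted p = 0.077). Mavs, the adaptor on mitochondria to which RIG-I and MDA5 signal, was at 77.2, 134, 85.4, 72.5 and 79.6 normalized counts in Rragc +/+ and 14.9, 64.9, 54.0, 51.9 and 53.4 in Rragc S74N/+ kidneys. Every Rragc S74N/+ kidney was below every Rragc +/+ kidney, but limma did not call it, with a log2 fold change of -1.005 (SE 0.32, adjusted p = 0.0713 in limma). DESeq2 called it lower (adjusted p = 0.0303). Mavs was singled out after its values were seen. None of 8 genes of the inducible proteasome and peptide loading passed in limma, while 3 were under 0.05 unadjusted, edgeR called 1, DESeq2 called 2, and all 8 had values above 0. Of 9 genes of Janus kinase and STAT signaling none passed in limma, edgeR or DESeq2, 1 was under 0.05 unadjusted, 4 had values above 0, and the median log2 fold change was -0.03. Besides Jak1, Jak2, Tyk2 and Stat3, the list holds Ptpn2, Ptpn6, Pias1, Irf2 and Il10rb, so its median does not describe the kinases and STATs alone. The gene under 0.05 was Ptpn2, at 0.70 (limma adjusted p = 0.0943), named after its values were seen.

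Of 46 further interferon-stimulated genes 8 rose and 0 fell in limma, with 1 lower at an unadjusted p under 0.05. The largest log2 fold changes of the 8 were those of Ifi213 and Ifi204, which encode DNA-binding PYHIN proteins. Ifi204 was at 10.1, 12.5, 10.6, 6.99 and 6.96 normalized counts in Rragc +/+ and 50.4, 34.9, 36.0, 25.5 and 50.5 in Rragc S74N/+ kidneys, and Ifi213 was at 10.1, 1.04, 2.88, 0.873 and 6.96 normalized counts in Rragc +/+ and 21.4, 24.2, 15.0, 23.4 and 29.1 in Rragc S74N/+ kidneys. Neither overlapped between genotypes, and the log2 fold changes were 1.95 (SE 0.28, adjusted p = 0.00114 in limma) and 2.46 (SE 0.50, adjusted p = 0.0101 in limma), both passing in all 10 fits that left out 1 library. Ddx60, a helicase, rose by 1.88 (SE 0.44, adjusted p = 0.0221 in limma), Trim30d by 1.21 (SE 0.22, adjusted p = 0.00625 in limma) and the T cell attracting chemokine Ccl5 by 1.19 (SE 0.31, adjusted p = 0.0322 in limma) on the log2 scale. The other 3 were Mndal, Trim30a and Ifi47, at 0.86, 0.85 and 0.82. Trim30d and Mndal passed in all 10 fits that left out 1 library, Ddx60 in 9, Trim30a in 7, Ccl5 in 3 and Ifi47 in 2. Without the variance trend Ddx60, Ccl5, Mndal and Ifi47 were lost (adjusted p = 0.0574, 0.0613, 0.0506 and 0.0662). Mndal is a neighbour of Ifi204, and Trim30a of Trim30d, and reads of such similar copies may have been shared. Mndal, Trim30a and Ifi47 were named after their values were seen.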

How the data were processed

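Per the labels, 5 whole kidney samples from Rragc S74N/+ and 5 from Rragc +/+ mice aged 1.5 years were sequenced. The QuantSeq 3′ kit (FWD) was used from 300 ng of RNA on an Illumina NextSeq. The kit tags the polyadenylated 3′ end of each transcript, so counts depend little on transcript length. The submitters' processing notes name FastQC 0.11.7, TopHat2 2.0.10, Bowtie 1.0.0, SAMtools 0.1.19, HTSeq 0.6.1 and DESeq2, and the build GRCm39. The authors deposited 1 table of 13299 genes in 10 libraries, and its values are a normalized signal, read counts divided by a size factor for each library. The labels number no replicates, so numbers follow the order of the samples.

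Values in all 10 columns were whole multiples of 1 step (100% of values, tolerance 0.001), which gave back read counts of 4488493 to 5797251 per library. No 2 libraries agreed within sampling noise (chi-square per degree of freedom at least 4.20 over 45 pairs). Rragc S74N/+ replicate 1 stood apart over all genes, at 26.6 to 55.1 against the other libraries. The pairs without it reached at most 18.9. Genes with at least 5 normalized counts in at least 5 libraries were tested (13236; 63 were removed), with limma 3.58.1 in R 4.3.3 on log2(normalized count + 1), eBayes with a variance trend, two-sided, and Benjamini-Hochberg adjustment over all genes tested at 0.05. The design foresaw the tests on read counts in the libraries whose reads could be recovered. edgeR 4.0.16 (quasi-likelihood) and DESeq2 1.42.0 were run on all 10 and, chosen after seeing the data, on the 8 libraries whose step differs clearly from 1. Scripts were tested on simulated data. Promoter windows came from RefSeq on GRCm38.p6, another build than that of the table, and were matched by symbol.

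The members and gene lists were chosen with earlier results of these data known. Values per kidney were given for each member past the threshold, for receptors and transcription factors, and for the member with the largest absolute change of each role group without a call. Of the pathway lists up to 5 genes past the threshold were named per list, and of the marker lists up to 3. Markers that did not pass were added after their values were seen. A gene of the pathway is not reported here and was left out of these lists. Per-kidney values of Gbp2, Sp100, Isg15, Ifitm3 and Mavs were added after they were seen. Alternatives were pseudocounts of 0.5 and 5, no filter, a mean of at least 50, equal totals, equal 75th percentiles, other variance models, a block for title numbers under or over 200, each library left out, and an adjusted p under 0.01.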

Additional observations from a re-analysis of the deposited data

Results flagged for a closer look

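Single kidneys stood far from the other 4 of their genotype in 12 of 100 member and genotype groups. About 5 would be flagged if values were normal and independent. The groups share the same 10 kidneys, so 12 beside 5 is not a test. The flag was a gap to the nearest kidney of more than 0.71 of the whole range, and all values are normalized counts.

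Rragc S74N/+ replicate 1 accounted for 4. It had 79.27 of Ifit2 against 20.4 to 35.0 in the others of its genotype. Its Ifitm2 was 410.3 against 168 to 224, its Ifitm3 was 2275 against 949 to 1214, and its Ifi35 was 83.0 against 24.99 to 31.1.

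Rragc +/+ replicate 3 accounted for 3. Its Ifit2 was 49.92 against 22.9 to 25.3, and its Ifit3 was 56.64 against 30.8 to 37.5. Its Isg20 was the lowest at 3.84, against 10.9 to 13.5.

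The remaining 5 were spread over other kidneys. Ifih1 was 101.8 in Rragc S74N/+ replicate 4 against 74.98 to 80.6. Bst2 was 11.94 in Rragc +/+ replicate 5 against 24.5 to 29.1. Ifi44 was 146.6 in Rragc +/+ replicate 1 against 91.7 to 107.5. Gbp2 was 12.48 in Rragc +/+ replicate 2 against 22.4 to 25.9. Irgm1 was 65.5 in Rragc +/+ replicate 4 against 32.8 to 41.6.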

How the results depend on the processing

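The 10 members under 25 normalized counts had a median standard error of 0.37, against 0.16 for those over 100, and intervals cover the spread between kidneys only. No member was called lower in any alternative that was run. Of the members past the threshold, 10 in the fit reported, 5 passed with eBayes without the trend, 16 with DESeq2, 5 with edgeR in 8 libraries, 1 at an adjusted p under 0.01, and 4 to 11 with 1 library left out. Calls over all genes, 798 in the fit reported, were 391 without the trend, 1354 with DESeq2 and 851 with edgeR in 8 libraries. With 1 library left out they ran from 311 to 902, both directions counted. They did not always move with the members. Without Rragc +/+ replicate 5 they were 777 with 5 members, and without Rragc S74N/+ replicate 3 they were 902 with 6 members. Without Rragc +/+ replicate 2 they were 311 with 4 members, and without Rragc S74N/+ replicate 5 they were 371 with 5 members. For the other pathway genes, 9 in the fit reported, the counts were 3 with a mean of at least 50, 14 with equal totals, 5 without the trend, 18 with DESeq2 (1 of them lower), 15 with DESeq2 in 8 libraries, 2 at an adjusted p under 0.01, and 5 to 12 with 1 library left out. Fewer genes tested lower the count at a mean of at least 50, and the cause was not tested for the others. Members whose genotypes did not overlap, 8 as reported, were 13 with equal totals and 8 to 13 with 1 library left out. Leaving out a library can only keep or raise this count, so that range does not test it. The share of all genes is not given for these alternatives. The median log2 fold change of the members stayed between 0.34 and 0.50 in every alternative. Equal totals moved the median of all genes by 0.08. The log2 fold change of Stat2 turned to -0.029 without Rragc +/+ replicate 4 and ranged from -0.029 to 0.23 with 1 library left out. No paired analysis was possible because the labels give the samples no replicate numbers. A block for the title number, under or over 200, gave 11 members.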
